A study of Mus musculus with 14 samples.

Results

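Chemokines are small secreted proteins that guide cells along gradients, and the RNA of 8 of them is described here in mouse CD4+ T cells: Xcl1, Ccl1, Ccl3, Ccl4, Ccl5, Ccl20, Cxcl10 and Cxcl17. They were matched by name, in a list drawn up with earlier results of these data known, and all 8 were found among the 23288 genes of the deposited tables. Each table row carries a RefSeq transcript identifier, by which the rows were matched. The row of Ccl3 bears the symbol of a human relative, CCL3L3, in the tables. Ccl20 has 2 transcripts, which were summed, and each of the other 7 genes has 1.

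RNA was sequenced from naive CD4+ T cells (CD62L high, CD44 low, CD25-) of C57BL/6 mice, which were grown for 3 days on plate-bound antibodies to CD3 and CD28 at 10 µg/ml each. All 7 media shared this activation and each has 2 libraries, 14 in all. Th0 held no polarizing cytokine, and antibodies that neutralize IL-2, IL-4 and IFN-γ. IL27_plus_TGF_beta held the same 3 antibodies together with TGF-β at 2 ng/ml and IL-27 at 20 ng/ml. Th1 held IL-12 at 20 ng/ml with anti-IL-4 at 10 µg/ml, and Th2 held IL-4 at 20 ng/ml with anti-IFN-γ at 10 µg/ml. iTreg held TGF-β at 20 ng/ml, IL-2 at 50 U/ml and anti-IFN-γ. Th17_b held TGF-β at 2 ng/ml, IL-6 at 20 ng/ml, anti-IFN-γ and anti-IL-2 at 10 µg/ml. Th17_23 held IL-1β at 20 ng/ml, IL-6 at 20 ng/ml, IL-23 at 50 ng/ml, anti-IFN-γ, anti-IL-2 and antibodies to TGF-β1 and to TGF-β2/1.2 at 5 µg/ml each. The cultures are polarized in a dish, and the labels do not say whether replicates came from separate mice or cultures, so the spread behind each p-value may be technical.

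As background, XCL1 (lymphotactin) acts on XCR1 of cross-presenting dendritic cells, and CCL3 and CCL5 act on CCR1 of myeloid cells. CCL1 acts on CCR8, CCL20 on CCR6 and CXCL10 on CXCR3. Activated T cells, natural killer cells and CD8 T cells are well known sources of XCL1, CCL3, CCL4 and CCL5, while CCL20 is known from Th17 cells and CXCL10 from cells that respond to interferon. CXCL17 is known mainly as a chemokine of mucosal tissue. IL-27 is made by antigen-presenting cells, and TGF-β signals through SMAD proteins.

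Promoters are shown for 4 of the genes on which the results turn, so that the letters next to each start can be set beside the values. RefSeq promoter entries of build GRCm38.p6 were matched for 5 of the 8 genes. The 250 bases before the start are printed, 5′ to 3′ on the gene's own strand, and this build differs from that of the expression tables. Capitals mark an interferon-stimulated response element (ISRE: GAAA, any 2 bases, GAAA) and NF-kB consensus matches in Cxcl10, an NF-kB consensus match in Ccl20 and a T-box motif (GGTGTGA) in Xcl1. Nothing is marked in Ccl3. The windows are chr5:92348890-92349139 (minus strand) for Cxcl10, chr1:83116516-83116765 (plus strand) for Ccl20, chr1:164935523-164935772 (minus strand) for Xcl1 and chr11:83649379-83649628 (minus strand) for Ccl3.
Cxcl10: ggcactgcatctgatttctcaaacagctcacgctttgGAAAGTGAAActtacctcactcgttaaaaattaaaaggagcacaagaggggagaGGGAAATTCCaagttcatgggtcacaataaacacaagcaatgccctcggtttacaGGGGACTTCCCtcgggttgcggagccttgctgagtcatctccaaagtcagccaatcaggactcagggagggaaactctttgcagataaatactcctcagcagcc
Ccl20: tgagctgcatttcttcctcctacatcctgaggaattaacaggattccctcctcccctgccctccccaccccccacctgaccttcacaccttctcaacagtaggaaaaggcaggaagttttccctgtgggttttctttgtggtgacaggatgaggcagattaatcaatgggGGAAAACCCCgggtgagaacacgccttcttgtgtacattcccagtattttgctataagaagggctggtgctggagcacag
Xcl1: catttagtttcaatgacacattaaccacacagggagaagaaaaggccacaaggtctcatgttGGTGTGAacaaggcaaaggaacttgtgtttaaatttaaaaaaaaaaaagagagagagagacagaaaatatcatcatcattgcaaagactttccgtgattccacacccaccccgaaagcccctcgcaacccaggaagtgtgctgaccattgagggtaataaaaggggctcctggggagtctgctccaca
Ccl3: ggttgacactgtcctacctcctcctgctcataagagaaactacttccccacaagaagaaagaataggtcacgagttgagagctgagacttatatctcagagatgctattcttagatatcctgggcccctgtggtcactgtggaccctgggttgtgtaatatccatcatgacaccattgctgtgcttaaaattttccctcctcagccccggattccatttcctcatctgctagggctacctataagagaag

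Motifs were searched on both strands in 32851 promoter windows of this length. The Cxcl10 window held the ISRE at 213 to 204 bases before the start, and 2.98% of all windows held one. It also held NF-kB consensus matches at 159 to 150, at 104 to 95 and at 103 to 94 bases before the start, where the last pair overlap, and an AP-1 motif (TGANTCA) at 74 to 68. The Ccl20 window held an NF-kB match at 80 to 71, over which an NFAT core (GGAAAA) lies, and a ROR motif (AGGTCA) at 174 to 169. It held further NFAT cores at 149 to 144 and at 134 to 129. An NF-kB match was present in 7.25% of all windows, an AP-1 motif in 6.75%, an NFAT core in 20.4% and a ROR motif in 14.0%. The Xcl1 window held the T-box motif at 188 to 182, present in 3.33% of windows, and a SMAD box (CAGAC) at 12 to 8, present in 42.2%. The Ccl20 window held a T-box motif as well, at 168 to 162. No GAS motif (TTCNNNGAA), which 7.02% of windows held, was among the letters of these 4 windows. The Ccl3 window held an NFAT core at 60 to 55 and a ROR motif at 186 to 181. A match is a string of letters and was not shown to be bound.

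Values are FPKM. They are given per length of transcript, so that levels of different genes may be set side by side. Replicate 1 and replicate 2 of all media were deposited in separate tables, and a mean ± SD of 2 libraries therefore crosses tables. Low values fell on steps of whole reads, from which the depth of each library relative to the first Th0 library was 0.935 to 1.06 in replicate 1 and 0.748 to 0.832 in replicate 2. Between 10305 and 10668 genes reached 1 FPKM in a library. All 7 T cell markers (Cd3e, Cd3g, Cd3d, Cd4, Cd28, Cd5 and Lck) were present in every medium, with sums of 1324 to 2273 FPKM. Cd8a reached at most 0.354 FPKM, and Cd8b1 stood at 2.35 to 7.73. The 5 B cell markers together reached at most 1.93, and Lyz2 of myeloid cells and Clec9a of dendritic cells were listed at 0 in every library. The 7 myeloid markers summed to 25.4 to 151.5 FPKM, nearly all from Ctss, and the 7 dendritic markers to 0.331 to 56.0, with Batf3 behind the higher sums, both of which T cells are known to express. Fewer producing cells and less RNA per cell cannot be told apart in these bulk samples.

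Changes are differences ± SE of log2(FPKM + 1) between media, and for genes near 0 they come out smaller than the change in FPKM. A call means an adjusted p under 0.05 in a limma fit across 11509 genes. Of the 8 genes, 7 reached a mean of 1 FPKM in some medium and were tested. Ccl1 did not. All 7 varied over the 7 media by the F test, as did 93.0% of all genes tested, so this count is close to the background. Cxcl10 and Cxcl17 reached the filter only through IL27_plus_TGF_beta, where they are high. A difference there was therefore fixed by the filter, in the F test as well. They are described by their values and left out of the counts of calls against single media, which cover the other 5 genes.

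**Figure D1:**
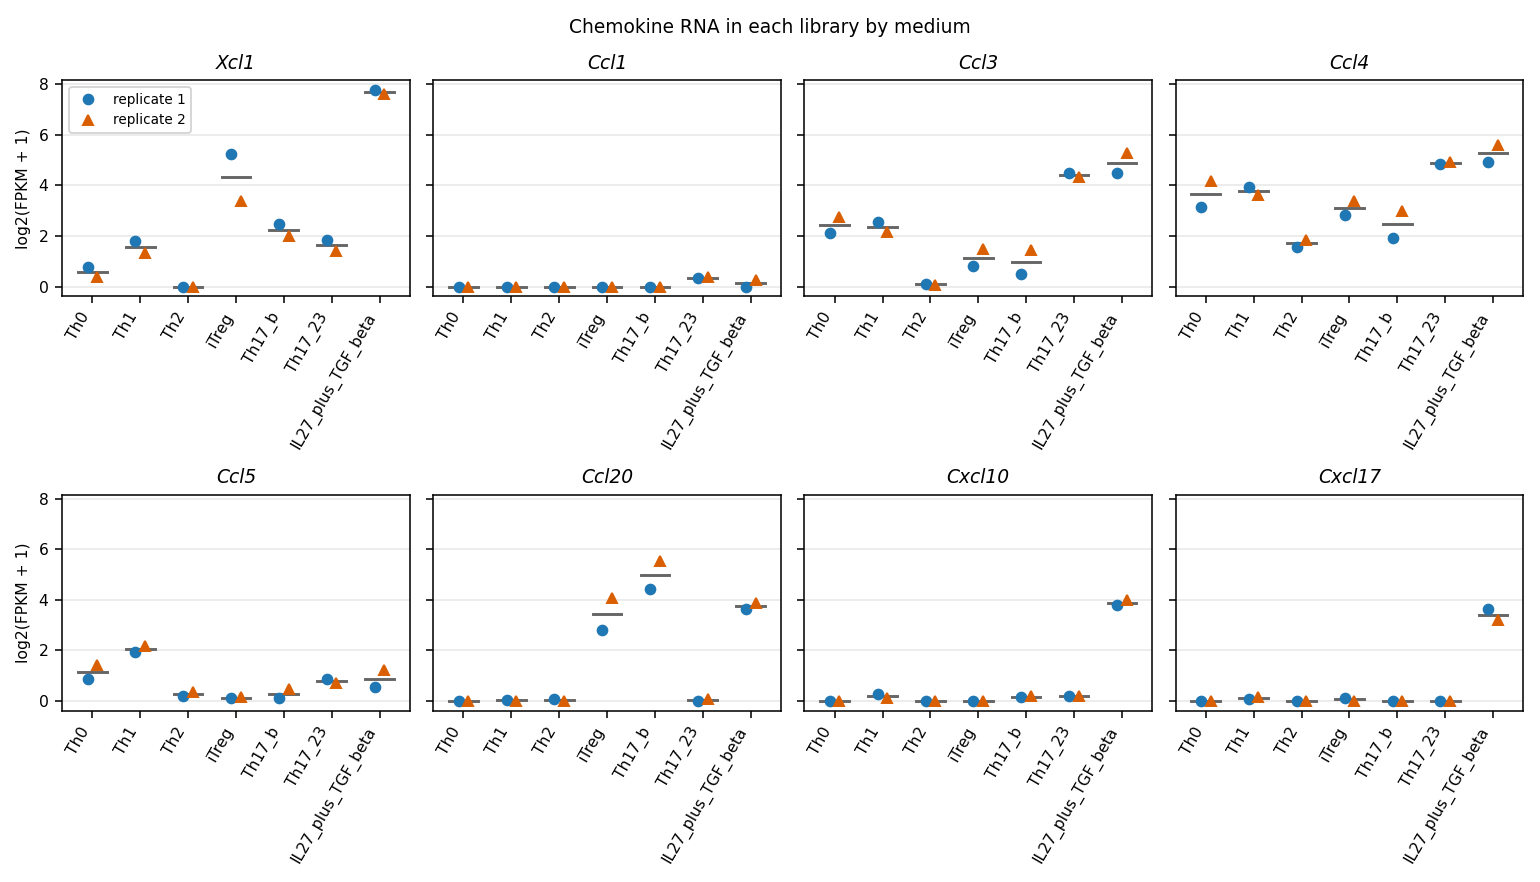
Level of each of the 8 chemokine genes as log2(FPKM + 1), by medium; circles are replicate 1, triangles replicate 2 and lines their mean. Xcl1 reached 218 and 195 FPKM in IL27_plus_TGF_beta, Ccl20 is seen in the 3 media that held TGF-β, and Cxcl10 and Cxcl17 stand out in IL27_plus_TGF_beta alone.

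The media differed in the summed level of the 8 genes and in the gene that led it. The 8 genes summed to 306 and 319 FPKM in the IL27_plus_TGF_beta libraries, to 50.2 and 37.0 in iTreg, 28.5 and 57.2 in Th17_b, 53.5 and 51.1 in Th17_23, 24.9 and 19.9 in Th1, 12.9 and 24.6 in Th0, and 2.26 and 2.94 in Th2. The IL27_plus_TGF_beta libraries lay above all others and the Th2 libraries below all others. Xcl1 made up 71.4% and 61.1% of the sum in IL27_plus_TGF_beta, and Ccl20 made up 71.8% and 78.5% in Th17_b. Ccl4 was the leading gene in Th0 (61.7% and 68.6%), Th1 (57.8% and 56.6%), Th2 (87.8% and 88.4%) and Th17_23 (52.3% and 57.1%), where Ccl3 added 40.6% and 37.4%. The iTreg libraries did not share a leading gene: Xcl1 held 74.2% of the sum in replicate 1 and 25.8% in replicate 2, in which Ccl20 held 43.4% against 12.0%.

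**Figure D2:**
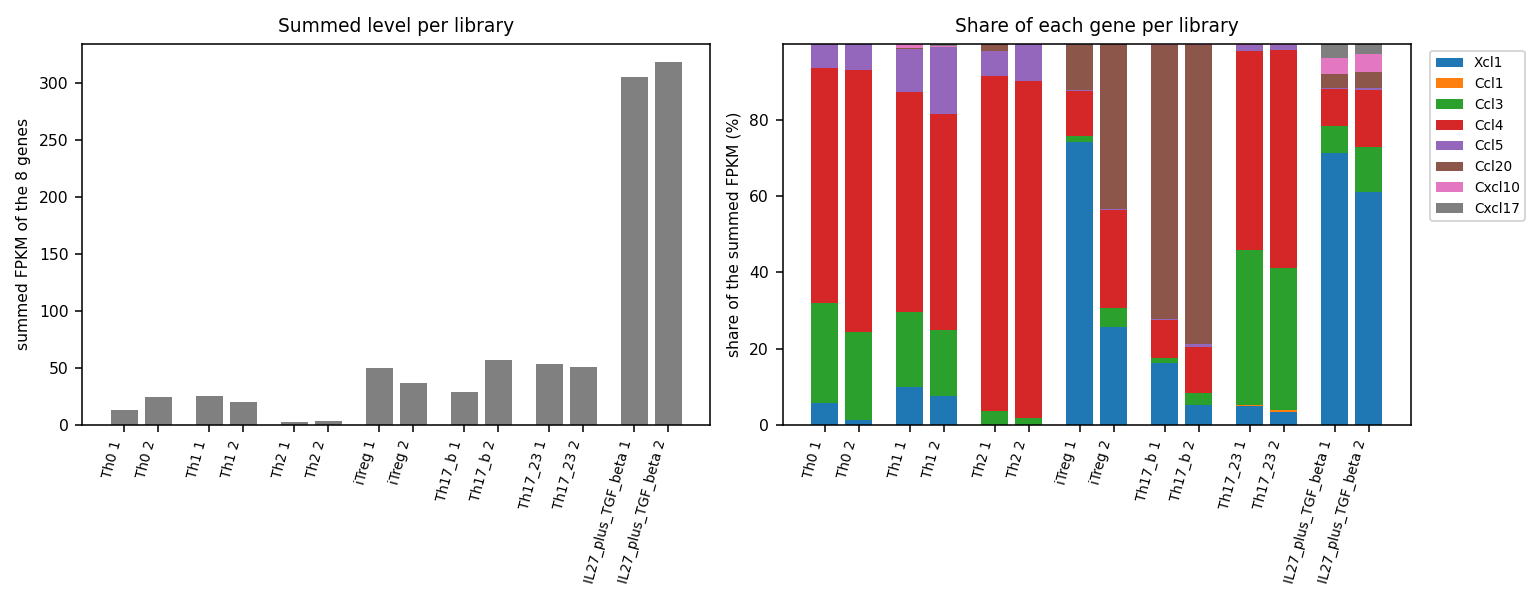
Left, summed FPKM of the 8 genes in each library, numbered by replicate. Right, the share of that sum held by each gene in percent. IL27_plus_TGF_beta reached 306 and 319 FPKM, and the pair of iTreg libraries differs most in make-up.

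Xcl1, the lymphotactin gene, was by far the highest of the 8 in IL27_plus_TGF_beta. It stood at 218 and 195 FPKM there (206.5 ± 16.8, SD, n = 2), at 37.2 and 9.55 in iTreg, 4.61 and 3.02 in Th17_b, 2.59 and 1.66 in Th17_23, 2.44 and 1.49 in Th1, 0.730 and 0.297 in Th0, and was listed at 0 in both Th2 libraries. No library of another medium reached the IL27_plus_TGF_beta values, and iTreg lay above the remaining media in each table. Against Th0 it was higher by 7.11 ± 0.35 in IL27_plus_TGF_beta (adjusted p = 3.6e-07), by 3.75 ± 0.35 in iTreg (2.4e-05) and by 1.66 ± 0.35 in Th17_b (0.0028).

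Between the media, Xcl1 was higher in IL27_plus_TGF_beta than in iTreg by 3.37 ± 0.35 (adjusted p = 2.6e-05), with 2.52 in the first table and 4.21 in the second. It was higher in iTreg than in Th17_b by 2.08 ± 0.35 (0.00073). The neighbours below these did not differ beyond their spread: Th17_b and Th17_23 (adjusted p = 0.16), Th17_23 and Th1 (0.87), Th1 and Th0 (0.097), and Th0 and Th2 (0.29). The difference of Th1 from Th0 was called in a fit of these media alone (0.034) and when 0.1 was the pseudocount (0.013), and that of Th17_b from Th17_23 when only these were fitted (0.005). A rise of 1.05 ± 0.35 in Th17_23 over Th0 was called (0.032), but the adjusted p was 0.092 without the table covariate, 0.076 without the filter and 0.093 to 0.14 when any of the 4 libraries was left out. Th1 exceeded Th2 by 1.55 ± 0.35 (0.01), with an adjusted p of 0.055 without either Th1 library and of 0.087 without the first Th2 library.

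Markers of other cells that make XCL1 were read in the same libraries, and the part of such cells in the level of Xcl1 was not tested. The 6 natural killer markers summed to 1.56 and 2.69 FPKM in IL27_plus_TGF_beta, to 0.955 and 0.343 in Th1 and to at most 0.457 elsewhere. Klrk1 gave most of this, at up to 2.00 in IL27_plus_TGF_beta, while Ncr1 stood at 0 and 0.0229 there and Klrb1c and Klra8 were listed at 0. The 2 CD8 T cell markers summed to 2.72 and 2.71 in IL27_plus_TGF_beta, the lowest of the 7 media. Cd8b1 gave most of that sum, at 2.42 and 2.35. Cd8a went the other way: at 0.296 and 0.354 FPKM in IL27_plus_TGF_beta it lay above every library of the other media. It was under the filter and was not tested. Both iTreg replicates carried the T cell markers, but they differed in IL-2 targets: Socs2 was at 18.0 and 81.2 FPKM and Cish at 19.4 and 86.8, and the part of this in the spread of Xcl1 was not tested.

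Ccl3 and Ccl4, the genes of the inflammatory proteins MIP-1α and MIP-1β, were highest in IL27_plus_TGF_beta and Th17_23 and lowest in Th2. Ccl3 stood at 21.8 and 37.6 FPKM in IL27_plus_TGF_beta, 21.7 and 19.1 in Th17_23, 4.92 and 3.48 in Th1, 3.39 and 5.72 in Th0, 0.742 and 1.80 in iTreg, 0.407 and 1.74 in Th17_b, and 0.0833 and 0.0531 in Th2. The upper pair of media did not overlap with the rest, nor did Th2. Compared with Th0, Ccl3 was higher by 2.45 ± 0.31 in IL27_plus_TGF_beta (adjusted p = 0.00014) and by 1.98 ± 0.31 in Th17_23 (0.00071). It was lower in Th2 (-2.35 ± 0.31, 0.00077), in Th17_b (-1.47 ± 0.31, 0.0029) and in iTreg (-1.33 and -1.26 by table, 0.0047), and Th1 differed from Th0 by -0.08 ± 0.31 (0.9). Ccl3 was called below every other medium in Th2, while its step from Th17_b to Th2 (0.88 ± 0.31, 0.035) was lost without the table covariate (0.063), without the filter (0.083), without the second Th2 library (0.2) and without the second Th17_b library (0.28).

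Ccl4 followed nearly the same order at higher levels. It stood at 29.5 and 48.1 FPKM in IL27_plus_TGF_beta, 28.0 and 29.2 in Th17_23, 14.4 and 11.3 in Th1, 7.95 and 16.9 in Th0, 6.02 and 9.50 in iTreg, 2.83 and 6.99 in Th17_b, and 1.99 and 2.60 in Th2. The same pair of media lay above all others, and Th2 lay below all others. Compared with Th0 it was higher by 1.61 ± 0.29 in IL27_plus_TGF_beta (adjusted p = 0.0013) and by 1.23 ± 0.29 in Th17_23 (0.007), and lower by -1.95 ± 0.29 in Th2 (0.0017) and -1.19 ± 0.29 in Th17_b (0.0067). The iTreg value of -0.56 ± 0.29 was not called (0.12), except in a fit of these media alone (0.038), and Th1 differed from Th0 by 0.12 ± 0.29 (0.83). The Th17_23 call was lost without the first Th0 library (0.075) or the first Th17_23 library (0.068), and the Th17_b call without the second Th0 library (0.073) or the first Th17_b library (0.076). Between IL27_plus_TGF_beta and Th17_23 the difference was 0.39 ± 0.29 (0.3) for Ccl4 and 0.47 ± 0.31 (0.23) for Ccl3, and neither was called. At the low end, iTreg and Th17_b (0.63 ± 0.29, 0.087) and Th17_b and Th2 (0.75 ± 0.29, 0.05) missed the threshold for Ccl4, and alternatives brought them to 0.038 and 0.029 at the lowest.

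The media separated these genes along the Th17 cultures. Th17_b, made with TGF-β and IL-6, was lower than Th17_23, made with IL-1β, IL-6 and IL-23 under antibodies to TGF-β, by -3.45 ± 0.31 for Ccl3 (adjusted p = 2e-05) and -2.42 ± 0.29 for Ccl4. IL27_plus_TGF_beta, with the same dose of TGF-β as Th17_b, exceeded Th17_b by 3.92 ± 0.31 for Ccl3 and 2.81 ± 0.29 for Ccl4. It exceeded iTreg by 3.75 ± 0.31 and 2.17 ± 0.29, and Th1 by 2.53 ± 0.31 and 1.49 ± 0.29. Th1 exceeded Th2 by 2.27 ± 0.31 for Ccl3 and by 2.07 ± 0.29 for Ccl4.

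Over the 14 libraries the pair correlated at r = 0.982 after each table was centred, as a description of 7 media with 2 libraries each. The ratio between them was not fixed. Ccl3 stood at 0.777 and 0.655 times the FPKM of Ccl4 in Th17_23 and at 0.74 and 0.781 times in IL27_plus_TGF_beta. The ratios were 0.426 and 0.339 in Th0, 0.341 and 0.309 in Th1, 0.144 and 0.248 in Th17_b, 0.123 and 0.19 in iTreg, and 0.0419 and 0.0204 in Th2. The ratio was therefore high where both genes were high. The 2 Th0 libraries differed in both genes and also in Il2ra (126 and 343 FPKM), Cish (60.5 and 172) and Socs2 (22.3 and 61.4), each higher in replicate 2, and the part of this in the changes from Th0 was not tested.

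**Figure D3:**
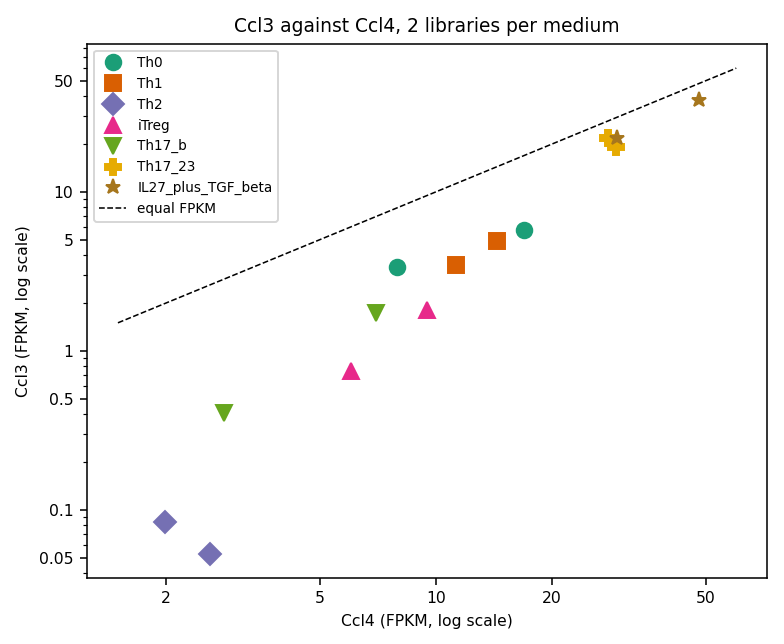
FPKM of Ccl3 against FPKM of Ccl4 on log axes, with 1 point per library and a dashed line of equal FPKM. Every library lies under the line; Th17_23 and IL27_plus_TGF_beta lie nearest to it, with Ccl3 at 0.655 to 0.781 times Ccl4, and Th2 farthest.

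Ccl5, the RANTES gene, was highest in Th1. It stood at 2.85 and 3.48 FPKM in Th1, 0.812 and 1.71 in Th0, 0.459 and 1.34 in IL27_plus_TGF_beta, 0.837 and 0.621 in Th17_23, 0.151 and 0.288 in Th2, 0.0735 and 0.392 in Th17_b, and 0.0789 and 0.0987 in iTreg. The Th1 libraries lay above every other library, and levels were low throughout. Th1 exceeded Th2 by 1.77 ± 0.19 (adjusted p = 0.00013) and IL27_plus_TGF_beta fell below Th1 by -1.17 ± 0.19 (0.00063), against the direction of Ccl3 and Ccl4. The rise of 0.91 ± 0.19 in Th1 over Th0 (0.013) was lost with a pseudocount of 0.1 (0.061), in a fit of these media alone (0.07), and without the first Th0 library (0.12) or either Th1 library (0.085 and 0.057).

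Compared with Th0, Ccl5 was lower in iTreg (-1.03 ± 0.19, adjusted p = 0.001), Th17_b (-0.86 ± 0.19, 0.0035) and Th2 (-0.86 ± 0.19, 0.012), the last without a call when the second Th2 library (0.09) or the second Th0 library (0.11) was left out. IL27_plus_TGF_beta (-0.26 ± 0.19, 0.27) and Th17_23 (-0.36 ± 0.19, 0.14) did not pass, although the latter was called without the first Th17_23 library (-0.62, 0.041). The neighbours Th0, IL27_plus_TGF_beta and Th17_23 did not differ beyond their spread, nor did Th17_b, Th2 and iTreg among themselves.

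Ccl20, the CCR6 ligand, was present in the 3 media that held TGF-β and near 0 in the other 4. It stood at 20.4 and 44.9 FPKM in Th17_b (32.7 ± 17.3, SD, n = 2), 11.4 and 13.7 in IL27_plus_TGF_beta (12.5 ± 1.63) and 6.00 and 16.1 in iTreg (11.0 ± 7.13). Th1, Th2 and Th17_23 held at most 0.0483, and both Th0 libraries were listed at 0. The 2 groups of media did not overlap. Th17_23 is the medium with antibodies to TGF-β, and Ccl20 was higher in iTreg than in Th17_23 by 3.42 ± 0.33 (adjusted p = 1.3e-05) and in Th17_b than in Th17_23 by 4.94 ± 0.33 (3.4e-06).

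Within the TGF-β media, Th17_b exceeded iTreg by 1.52 ± 0.33 (adjusted p = 0.0033) and IL27_plus_TGF_beta by 1.22 ± 0.33 (0.016), although the latter was lost without either IL27_plus_TGF_beta library (0.067 and 0.096) or the second Th17_b library (0.16). IL27_plus_TGF_beta and iTreg differed by 0.30 ± 0.33 (0.44). That value turned to -0.23 without the first iTreg library and was called at 0.84 without the second (0.045). Of the 2 Ccl20 transcripts, NM_016960 carried 66.2% and 69.7% of the FPKM in Th17_b, 69.1% and 61.7% in IL27_plus_TGF_beta and 76.4% and 65.0% in iTreg. The transcripts differ little in sequence, so the split is uncertain, and the ranges of the 3 media overlapped.

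Cxcl10, the interferon-inducible CXCR3 ligand, was found in IL27_plus_TGF_beta at 12.8 and 15.0 FPKM (13.9 ± 1.56, SD, n = 2). It stood at 0.225 and 0.0698 in Th1, 0.137 and 0.160 in Th17_23 and 0.106 and 0.141 in Th17_b, and was listed at 0 in all Th2, iTreg and Th0 libraries. Th17_23 was the next medium in order. The difference to it was 3.70, and no p-value is given, since the filter fixed its outcome. The other 6 media did not differ beyond their spread. Its close relatives Cxcl9 and Cxcl11, which are CXCR3 ligands too, were not tested. Cxcl9 reached 0.0364 and 0.0319 FPKM in IL27_plus_TGF_beta, and Cxcl11 was listed at 0 there.

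Cxcl17 had the same pattern. It stood at 11.3 and 8.23 FPKM in IL27_plus_TGF_beta (9.79 ± 2.20, SD, n = 2), at 0.0405 and 0.113 in Th1 and at 0.0921 and 0 in iTreg, and it was listed at 0 in all 8 libraries of Th2, Th17_b, Th17_23 and Th0. The difference to Th1, next in order, was 3.31, and its outcome was fixed by the filter too. Cxcl10 and Cxcl17 correlated at r = 0.992 over the 14 libraries, which rests on the level in 1 medium. The 6 epithelial markers were summed beside this mucosal chemokine and reached 15.5 and 13.9 FPKM in IL27_plus_TGF_beta against 1.74 to 3.46 elsewhere. Epcam gave nearly all of it (14.6 and 13.4). Krt18 stood at 0.804 and 0.482 there, 0.119 and 0.146 in Th0, and 1.17 and 1.03 in Th17_b. Epcam and Krt18, the 2 tested, were both called higher in IL27_plus_TGF_beta than in Th0 (22.0% of all genes were). Krt19 was listed at 0 in every library, and Krt8 stood at 0 and 0.0180 in IL27_plus_TGF_beta. Cdh1 and Cldn4 reached at most 0.0350 there.

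Ccl1, the CCR8 ligand, was listed at 0 in 11 of 14 libraries. It was found at 0.249 and 0.289 FPKM in Th17_23 and at 0.194 in the second IL27_plus_TGF_beta library, while the first was at 0. These levels lay under the filter and were not tested.

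**Figure D4:**
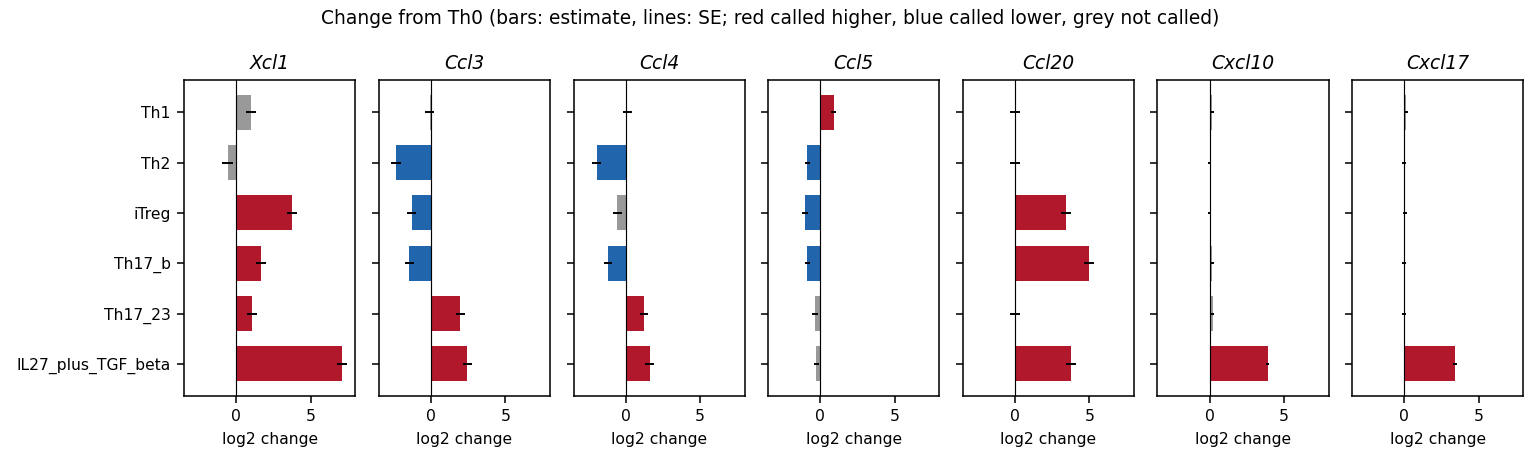
Log2 change from Th0 of the 7 tested genes in each other medium (bars, with SE as lines), on the log2(FPKM + 1) scale; red bars were called higher, blue lower and grey not called. Ccl3 and Ccl4 are red in Th17_23 and IL27_plus_TGF_beta and blue in Th2 and Th17_b. Th0 was listed at 0 for Ccl20, Cxcl10 and Cxcl17, so their bars show the level alone. For Cxcl10 and Cxcl17 the calls in IL27_plus_TGF_beta were fixed by the filter.

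The 5 genes counted here, Xcl1, Ccl3, Ccl4, Ccl5 and Ccl20, each reached a mean of 1 FPKM in more than 1 medium. They come from a list drawn up with earlier results of these data known, and were set apart after the data were seen. Shares and medians over all genes are therefore given for scale, and an excess over them is not a test. The comparisons with Th0 share its 2 libraries. IL27_plus_TGF_beta had 4 of 5 called higher and 0 lower, where 22.0% of all genes were called higher and 28.9% lower. The median of the 5 was 2.45, against -0.04 over all genes. Th17_23 had 3 higher and 0 lower (26.4% and 22.9% of all genes), with a median of 1.05 against 0.03. Without the first Th0 library 1 of the 3 remained called.

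Th17_b had 2 higher and 3 lower (25.3% and 29.2% of all genes) and iTreg 2 higher and 2 lower (22.7% and 40.9%), with medians of -0.86 and -0.56 against -0.03 and -0.13 over all genes. Both other scalings moved the iTreg median of all genes by 0.108 to 0.11. Th2 had 3 of 5 lower and 0 higher (12.3% of all genes were lower and 5.62% higher), with a median of -0.86 against -0.07. Th1 had 1 higher, Ccl5, and 0 lower (6.40% of all genes were higher and 7.59% lower), with a median of 0.12 against -0.05. With a pseudocount of 0.1 the 1 gene called in Th1 was Xcl1 in place of Ccl5, and a filter at 5 FPKM, which removed Ccl5, left 0.

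Between polarized media, IL27_plus_TGF_beta had 4 of the 5 higher than Th17_b and 1 lower, Ccl20 (16.7% of all genes were higher and 21.9% lower). Without the table covariate these were 3 and 1, as Ccl5 lost its call, and 3 and 0 without the second library of either medium. It had 4 higher than iTreg and 0 lower (38.5% and 27.9% of all genes), and 4 higher than Th1 with 1 lower, Ccl5 (26.0% and 26.4%). Th1 had 4 genes higher than Th2 and 0 lower (14.6% and 10.0% of all genes): Xcl1, Ccl3, Ccl4 and Ccl5. Th17_b had 1 higher than Th17_23, Ccl20, and 3 lower, Ccl3, Ccl4 and Ccl5 (23.5% and 32.4% of all genes), though Ccl5 at -0.50 ± 0.19 (adjusted p = 0.045) was lost without the table covariate.

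The receptors of these ligands were read in the same libraries. Of 9 receptors, 3 were tested, Ccr6, Ccr8 and Cxcr3. Against Th0, 3 of the 3 were higher in Th17_b (25.3% of all genes were), 3 in IL27_plus_TGF_beta (22.0%), 3 in iTreg (22.7%), 2 in Th17_23 (26.4%) and 1 in Th2 (5.62%). In Th1 limma called 0 of them, and 0 had an unadjusted p under 0.05. Xcr1 reached at most 0.282 FPKM in any library, and stood at 0.0174 and 0 in IL27_plus_TGF_beta, which held most Xcl1. Ccr1 reached at most 0.276 and Ccr3 at most 0.316.

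Ccr6 stood at 51.3 and 35.3 FPKM in iTreg, 49.2 and 46.8 in Th17_b, 12.3 and 19.7 in IL27_plus_TGF_beta, 1.64 and 4.59 in Th17_23, and 0.397 and 0.884 in Th0. The 3 media with Ccl20 were those with the most Ccr6.

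Cxcr3 stood at 28.9 and 31.4 FPKM in Th17_23, 11.7 and 9.70 in IL27_plus_TGF_beta, 4.79 and 5.67 in Th17_b, 4.20 and 1.31 in iTreg, and 0.322 and 0.145 in Th0. It was higher than in Th0 by 4.66 ± 0.27 in Th17_23 (adjusted p = 2.1e-06) and by 3.24 ± 0.27 in IL27_plus_TGF_beta (1e-05). Only the latter held Cxcl10 above 1 FPKM. Ccr8 stood at 213 and 174 in iTreg, 40.5 and 50.4 in Th2, 39.6 and 30.5 in IL27_plus_TGF_beta, and 9.79 and 12.1 in Th0. Ccl1, its ligand, was listed at 0 in iTreg and Th2, and in Th0 as well.

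**Figure D5:**
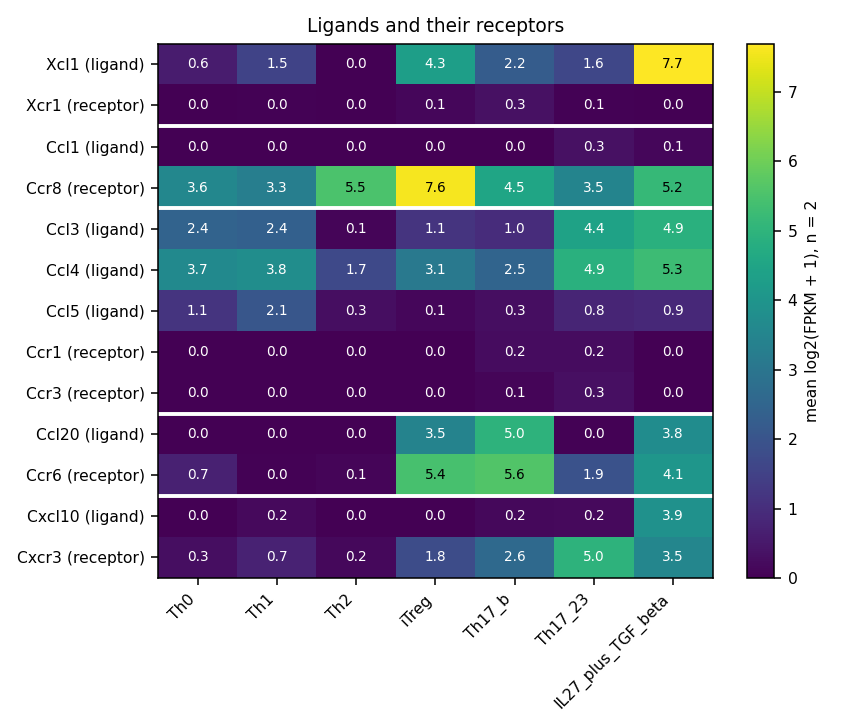
Mean log2(FPKM + 1) of 2 libraries for the ligands and their receptors in the 7 media, with white lines between ligand and receptor groups. Ccl20 and Ccr6 are high in iTreg, Th17_b and IL27_plus_TGF_beta, and Xcr1 and Ccl1 are near 0 throughout.

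The other chemokine ligands were mostly silent. Of 31, only Ccl25 and Ccl27a passed the filter, 4 were listed at 0 in every library, and the highest value of an untested one in a library was 0.562 FPKM, for Ccl17 in the second Th17_23 library. Ccl27a, a skin chemokine, was lower than in Th0 (5.72 and 5.25 FPKM) in Th17_b (1.19 and 1.63, -1.43 ± 0.15, adjusted p = 4.8e-05), iTreg (-0.88 ± 0.15, 0.00085), Th17_23 (-0.73 ± 0.15, 0.0038) and IL27_plus_TGF_beta (3.13 and 3.45, -0.60 ± 0.15, 0.0096). Mouse Ccl27 genes have near-identical copies, so its level is uncertain. Ccl25, a chemokine of thymus and gut, did not pass in any of the 6 comparisons with Th0.

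Transcription factors known to act on these genes also differed between media. Of 14, 12 were tested, and 8 were higher and 3 lower in IL27_plus_TGF_beta than in Th0 (22.0% and 28.9% of all genes). The counts were 8 and 3 in Th17_b (25.3% and 29.2%), 8 and 2 in Th17_23 (26.4% and 22.9%) and 7 and 1 in Th1 (6.40% and 7.59%). They were 4 and 6 in iTreg (22.7% and 40.9%), and 3 and 4 in Th2 (5.62% and 12.3%). Irf1, an interferon-response factor, stood at 228 and 250 FPKM in IL27_plus_TGF_beta, 79.7 and 73.4 in Th1 and 17.6 and 14.9 in Th0 (3.80 ± 0.11 between the first and the last, adjusted p = 1.1e-08). Cxcl10 was also highest in IL27_plus_TGF_beta, and Th1 held at most 0.225 FPKM of it. The part of Irf1 in the level of Cxcl10 was not tested.

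Tbx21, which encodes T-bet, stood at 50.0 and 65.7 FPKM in IL27_plus_TGF_beta, 32.5 and 32.3 in Th1, 13.8 and 17.6 in Th17_23, 0.243 and 0.604 in Th0 and 0.0108 and 0.0541 in iTreg. Xcl1 was second highest in iTreg, at 37.2 and 9.55, and stood at 2.44 and 1.49 in Th1. The part of Tbx21 in the level of Xcl1 was not tested. Maf, a factor of TGF-β and IL-27 cultures, was higher than in Th0 by 6.26 ± 0.11 in iTreg and 6.60 ± 0.11 in Th17_b. The rise was 6.72 ± 0.11 in IL27_plus_TGF_beta and 2.62 ± 0.11 in Th17_23. The first 3 are the media with Ccl20, and the part of Maf in its level was not tested.

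By a rule that takes the 3 genes with the highest correlation to each member over the 14 libraries, Xcl1 was most like Dsp (r = 0.98), the desmoplakin gene, which stood at 19.6 and 16.5 FPKM in IL27_plus_TGF_beta, 8.62 and 4.21 in iTreg and 0.172 and 0.0985 in Th0. Meak7 (0.965) and Gna12 (0.964) came next. Ccl3 and Ccl4 were each the gene most like the other, followed for both by Ppm1f (0.966 and 0.952), a phosphatase gene, and then by Aig1 (0.946) for Ccl3 and Fas (0.939), the death receptor gene, for Ccl4. Ccl5 had the lowest likeness of the 7, with Zfp473 (0.907), Tmem159 (0.896) and Lyrm1 (0.884). Ccl20 was most like Cldnd1 (0.983), which stood at 133 and 136 FPKM in Th17_b, 66.5 and 67.7 in IL27_plus_TGF_beta and 31.8 and 61.5 in iTreg, followed by Gm16907 (0.982) and Gm5547 (0.977). Cxcl10 was most like Ch25h (0.998), the gene of cholesterol 25-hydroxylase, at 18.4 and 22.8 in IL27_plus_TGF_beta and at most 0.0390 elsewhere, and like Mir680-2 (0.997) and Mpzl2 (0.997). Cxcl17 was most like Gzmk (0.999), the granzyme K gene, at 9.11 and 7.29 there and listed at 0 in all other libraries, and like Gfra4 and Lamb1 (0.997 each). For Cxcl10 and Cxcl17 these r values rest on the level in IL27_plus_TGF_beta alone, and they show no likeness over the other media. Libraries of 1 medium are not independent conditions, and between 9138 and 9139 genes were searched for each member.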

How the data were processed

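RNA was sequenced from CD4+ T cells of 7 media with 2 libraries each; per the labels' protocols, a mirVana kit gave total RNA and a TruSeq kit the libraries. Build mm9, Cufflinks 1.3.0 and TopHat2 2.0.3 are listed, without their roles, per the submitters' processing notes. The authors deposited FPKM for 30028 transcripts in 2 tables, 1 per replicate. How the tables were scaled, strand and the treatment of shared reads are not given in the sources used here, so levels of near-identical genes are uncertain.

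Transcripts were named by RefSeq accession (98.5%), by the table's symbol (348) or by themselves (109), and FPKM were summed to 23288 genes. FPKM carry no read totals: at or under 0.15 FPKM, 66.4% to 74.3% of the genes compared between libraries stood in a ratio of whole reads (up to 6, tolerance 1%), which gives relative depth and no counting interval. Genes with a mean of 1 FPKM in at least 1 medium (11509) were tested on log2(FPKM + 1) with limma 3.58.1, run under R 4.3.3 (eBayes with trend after lmFit and contrasts.fit), over all 14 libraries, with the table as covariate, which left 6 residual and 3.37 prior degrees of freedom. P-values are two-sided and adjusted by Benjamini-Hochberg over all genes tested, for 21 pairs of media and an F test, and called under 0.05. The procedure was tested on simulated data.

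The named genes are the 8 members, other ligands, receptors, factors, IL-2 targets, stress genes, markers of other cell types, and the 3 genes with the highest Pearson correlation to each member among those that average at least 5 FPKM in some medium. A few genes of these lists are not reported here, nor counted. Members and lists were chosen with earlier results of these data known. Of the gamma-delta and NKT cell markers 3 of 4 matched, summing to at most 0.493 FPKM. Of 7 stress genes 5 were tested. Against Th0, 3 were higher in IL27_plus_TGF_beta (22.0% of all genes were), 3 in Th17_b (25.3%), 2 in Th17_23 (26.4%) and 1 in Th1 (6.40%). In Th2 0 were higher and 1 lower (5.62% and 12.3% of all genes), and in iTreg 1 was higher and 2 lower (22.7% and 40.9%). Promoters are RefSeq entries of GRCm38.p6. Alternatives left out the table covariate, the filter, the trend, the other media or each library in turn, or used 0.1 as pseudocount, 5 FPKM as filter, quantile normalization, 1 median for all libraries, or each gene's highest transcript.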

Additional observations from a re-analysis of the deposited data

How the results depend on the processing

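Of the members' log2 changes under the alternatives, 1232 kept their direction and their side of the threshold, 34 lost and 16 gained a call, and 7 turned direction. Those 7 were not called in either fit and all came from leaving out 1 library. Cxcl10 and Cxcl17 are among the members counted. Their calls in IL27_plus_TGF_beta were fixed by the filter and they were near 0 elsewhere, so they could hardly change. For Th1 against Th0, Ccl3 turned to 0.08 without the second Th0 library and 0.36 without the second Th1 library, in a range of -0.51 to 0.36, and Ccl4 turned to -0.35 without the first Th1 library and -0.19 without the first Th0 library, in a range of -0.35 to 0.59. For Th17_b against iTreg, Ccl3 turned to 0.03 without the second iTreg library and 0.19 without the first Th17_b library, in a range of -0.53 to 0.19. Ccl20 in IL27_plus_TGF_beta against iTreg turned to -0.23 without the first iTreg library, in a range of -0.23 to 0.84. The cause was not tested. The count of the 5 members called in Th1 against Th0 was 1; with a pseudocount of 0.1 it was 1 (2 over all 7), and it was 0 with a filter at 5 FPKM, which removed Ccl5, and 0 to 1 when 1 library was left out. In Th17_23 against Th0 the count of 3 ranged from 1 to 3 without 1 library, and in IL27_plus_TGF_beta against Th17_b the count of 5 ranged from 3 to 4. Counting 5 genes, without Cxcl10 and Cxcl17, was chosen after the data were seen. The counts of the other 8 comparisons, and that of all 7 genes in the F test, stayed within 1.5 times under every alternative run. In the F test the outcome for Cxcl10 and Cxcl17 was fixed by the filter. In the order of levels, 12 of 42 neighbouring pairs were called (10 of 30 without Cxcl10 and Cxcl17), and 10 to 16 under alternatives that were added after the data were seen. A share over all genes is not given for such pairs, so these counts are not read as a result about the members.

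Replicate numbers mark the 2 tables and nothing says that they mark a shared animal or day. Deviations of same-numbered libraries correlated between -0.141 and 0.358 over 21 pairs of media, so the numbers are not taken to mark a shared animal or day. The main fit still holds the table as a covariate, and so compares same-numbered libraries within their table. Without the replicate block, 5191 genes in place of 5860 were called for IL27_plus_TGF_beta against Th0 and 967 in place of 1610 for Th1 against Th0, and 10 in place of 12 neighbouring pairs; the count of members in Th1 against Th0 was 1 in both. Other scalings moved the share of calls that were higher by over 10 percentage points: in Th2 against Th0 from 31.4% to 49.0% with quantile normalization and 47.1% with 1 median, in iTreg against Th0 from 35.7% to 46.7% and 46.5%, in Th1 against Th2 from 59.4% to 48.7%, and in IL27_plus_TGF_beta against Th17_b from 43.1% to 55.6% with 1 median. No member turned direction under them. FPKM carry no read totals, so the smallest change that could be seen at low levels is unknown.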
